A study of Mus musculus with 2 samples.

Results

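The 43 genes described here make, desaturate, elongate, activate, bind, transport and oxidise long-chain fatty acids. They were taken by name from a list of enzymes and carriers, by a rule that sets no threshold on their levels, and all 43 were found among the 28592 genes of the table. The cells were E14TG2a mouse embryonic stem (ES) cells, an Hprt-deficient male line, held in the naive ground state by 2i/LIF medium. That medium combines inhibitors of MEK and GSK3 with leukaemia inhibitory factor, and both libraries share it. There was 1 group of 2 replicates, with no treated, differentiated or untreated comparison, and since no label says that the replicates came from different cultures, their spread may be only technical. RNA was total RNA depleted of ribosomal RNA and sequenced from stranded libraries. Levels are FPKM, which counts sequenced fragments relative to transcript length and to library depth, so they can be compared between genes, within the limit that the effective transcript lengths are not given. Values are the mean ± SD (n = 2) unless both replicates are given, and a gene counts as detected when neither replicate is below an FPKM of 1.

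Fatty acid synthesis starts in the cytosol. Citrate exported from mitochondria is split into acetyl-CoA, which is carboxylated to malonyl-CoA and built into palmitate by fatty acid synthase, and palmitate is then elongated and desaturated in the endoplasmic reticulum. Oxidation runs the other way in mitochondria: acyl-CoA enters through the carnitine shuttle and is shortened stepwise, and the electrons pass through electron transfer flavoprotein to the respiratory chain. Malonyl-CoA inhibits the entry step, so that synthesis restrains oxidation. Dividing cells draw on synthesis for membranes, and fatty acids bound by cytosolic carriers can serve either route.

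The labelled cell type was checked first. All 10 markers of pluripotent cells were detected, from Klf4 at 12.5 ± 1.57 to Dppa5a at 7048 ± 107, and 0 of 10 fibroblast, 0 of 10 primitive endoderm, 0 of 9 adipocyte and 0 of 9 hepatocyte markers were. The summed FPKM of the fibroblast markers was 0.719 in replicate 1 and 4.59 in replicate 2, with Col1a2 at 0.0101 and 0.917 and S100a4 at 0 and 1.17. Traces of 8 of the 10 markers were higher in replicate 2, and the other 2, Pdgfra (0.304 and 0.179) and Lum (0.0139 and 0), were higher in replicate 1. The part of these traces in the results below was not tested. In RNA from bulk culture, few cells with a high level of a transcript and many cells with a low level cannot be told apart.

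Most of the fatty acid genes were expressed, and 24 of the 43 lay above the median of detected protein-coding genes, 13.6. That median splits the detected protein-coding genes evenly, and the upper quartile of all 20717 protein-coding genes was close to it, at 13.9. Of the 43 genes, 37 (86.0%) were detected, against 50.5% of all 20717 protein-coding genes and 39.4% of all genes in the table. An FPKM of 10 or more in both replicates was reached by 28 of the 43 (29.0% of protein-coding genes), and an FPKM of 100 or more by 6 of the 43 (4.70% of protein-coding genes). Those 6 were Fabp3, Acly, Etfb, Acadm, Scd2 and Echs1. The median over the 43 genes was 21.6 in each replicate, and that of the 10472 detected protein-coding genes was 13.6. The 6 genes not detected were Elovl2, Elovl4, Acadl, Fads3, Cd36 and Elovl3. Of these, Acadl stood at 0.729 and 1.01, Elovl2 at 1.25 and 0.788 and Elovl4 at 0.849 and 1.05, on either side of the limit in the replicates. Fads3 (0.314 and 0.169) and Cd36 (0 and 0.0660) were well below it, and Elovl3 was listed at 0 in both. A value of 0 in such a table can also be a failed estimate.

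**Figure D1:**
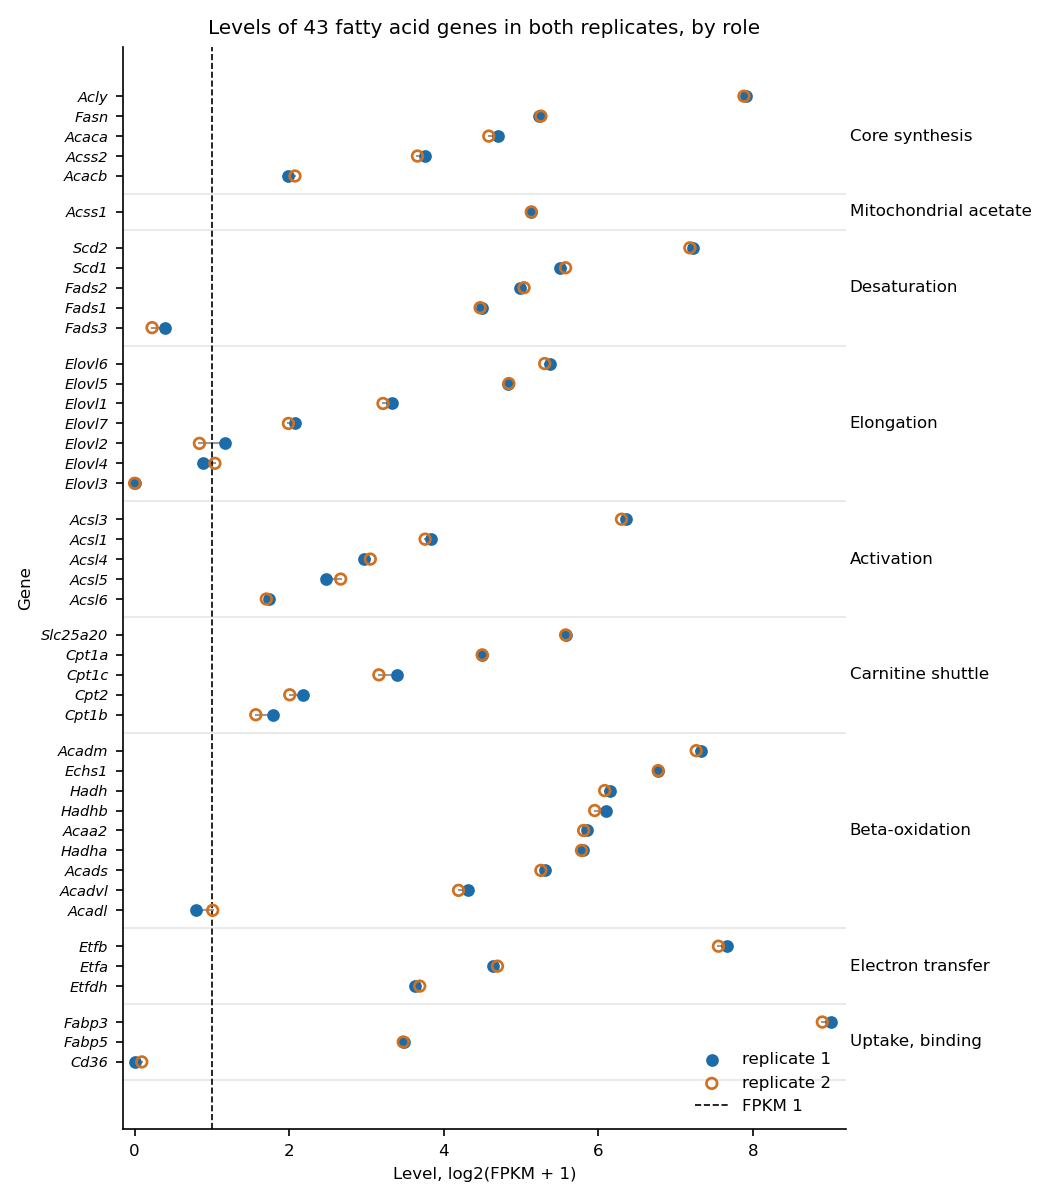
Levels of the 43 genes in each replicate on the log2(FPKM + 1) axis, grouped by role; filled points are replicate 1, open points replicate 2, and the dashed line marks an FPKM of 1. The points of a gene lie close together except among the lowest genes, and over all roles the levels run from Fabp3 near 495 to Elovl3 at 0.

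These 5 promoter regions are shown because their genes mark the ends of the range: the highest gene of all, the highest gene of synthesis, the highest and lowest acyl-CoA dehydrogenases, and the divergent pair that encodes a single enzyme complex. Each is the 250 bases before the RefSeq start on GRCm38.p6, from windows outside every RefSeq gene span, written 5′ to 3′ on the strand of the gene. Capitals mark matches on either strand to CCAAT, to the GC box GGGCGG, to the E-box CACGTG, to AAGGTCA (the extended nuclear receptor motif that estrogen-related receptors bind) and to the sterol regulatory element TCACCCCAC. Matches in these regions did not overlap one another.
Fabp3, chr4:130308488-130308737, plus strand: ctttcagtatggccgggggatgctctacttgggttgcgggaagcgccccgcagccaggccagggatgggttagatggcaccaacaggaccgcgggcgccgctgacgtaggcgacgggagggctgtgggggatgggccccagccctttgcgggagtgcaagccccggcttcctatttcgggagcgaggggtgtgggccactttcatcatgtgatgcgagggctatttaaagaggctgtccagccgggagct
Acly, chr11:100528001-100528250, minus strand: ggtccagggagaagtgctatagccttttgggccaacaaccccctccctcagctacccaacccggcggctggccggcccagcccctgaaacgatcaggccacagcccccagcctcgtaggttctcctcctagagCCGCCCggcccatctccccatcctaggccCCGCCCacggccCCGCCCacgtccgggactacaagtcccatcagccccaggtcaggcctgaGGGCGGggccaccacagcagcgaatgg
Acadm, chr3:153944644-153944893, minus strand: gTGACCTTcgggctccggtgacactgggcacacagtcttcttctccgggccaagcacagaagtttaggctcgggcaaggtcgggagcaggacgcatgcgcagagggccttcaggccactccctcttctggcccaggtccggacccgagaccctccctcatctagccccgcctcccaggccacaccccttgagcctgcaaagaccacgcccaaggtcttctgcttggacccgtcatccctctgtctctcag
Acadl, chr1:66863310-66863559, minus strand: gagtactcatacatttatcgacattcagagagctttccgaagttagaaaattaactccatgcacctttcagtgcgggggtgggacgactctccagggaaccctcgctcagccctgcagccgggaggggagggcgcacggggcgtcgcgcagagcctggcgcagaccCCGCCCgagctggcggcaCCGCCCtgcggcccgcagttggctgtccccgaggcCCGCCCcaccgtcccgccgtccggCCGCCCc
Hadhb, chr5:30155003-30155252, plus strand: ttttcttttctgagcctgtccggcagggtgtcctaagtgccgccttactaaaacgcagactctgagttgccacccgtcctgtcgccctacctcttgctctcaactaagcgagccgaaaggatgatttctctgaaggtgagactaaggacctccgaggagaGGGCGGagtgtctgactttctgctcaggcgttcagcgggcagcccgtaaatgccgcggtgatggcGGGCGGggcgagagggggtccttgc
The region of Acly held 4 GC boxes and that of Acadl also 4. The level of Acly was 237 ± 2.83 and that of Acadl 0.872 ± 0.201, and a relation of motifs to level was not tested. The region of Acadm held the motif AAGGTCA, in reverse, from position -249 relative to the start. The region of Fabp3 held none of the 5 motifs. The region of Hadhb, with 2 GC boxes, lies within the 272 bases between the starts of Hadha and Hadhb, which are transcribed away from each other. In the full windows, which also take in the 50 bases after the start, 36 of the 43 genes could be matched in the table of RefSeq promoters used, and Scd1, Scd2, Fads1, Elovl3, Cpt1b, Acaa2 and Fabp5 were not analysed here. The GC box was found in 26 of the 36 genes against 38.2% of 27025 genes, CCAAT in 19 against 41.1%, AAGGTCA in 3 (Acacb, Acadm and Acsl6) against 5.38%, CACGTG in 2 (Elovl4 and Elovl5) against 8.09% and TCACCCCAC in 1 (Acsl1) against 0.614%. The 27025 genes were not restricted to protein-coding or expressed genes, so their shares are not a like-for-like background for these members. A match is a description of the letters and not of binding.

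Among the enzymes of core synthesis, the gene for the step that makes acetyl-CoA from citrate was the highest and the 4 others lay far below it. Acly (ENSMUSG00000020917.16, chromosome 11, 100476352 to 100528000) encodes ATP citrate lyase, which makes cytosolic acetyl-CoA from citrate, and its FPKM was 239 and 235. Fasn (ENSMUSG00000025153.8, chromosome 11, 120805958 to 120825166), the fatty acid synthase gene, was at 36.6 and 37.2. Acaca, the cytosolic acetyl-CoA carboxylase that makes the malonyl-CoA for synthesis, was at 24.9 and 22.9. Acly thus exceeded Fasn by a ratio of 6.43 ± 0.157 and Acaca by 9.92 ± 0.463, and the replicates of these genes did not overlap. Acacb, the carboxylase at the outer mitochondrial membrane whose malonyl-CoA restrains fatty acid entry, was at 2.94 and 3.21. Acaca made up 88.6% ± 1.22 of the summed FPKM of the pair. The span of Acaca shares 10 bases with Tada2a, at 26.7 and 26.4.

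Acetate is another source of acetyl-CoA, and here the mitochondrial enzyme was ahead of the cytosolic one. Acss1, the mitochondrial acetyl-CoA synthetase, was at 34.0 and 34.1, and Acss2, the enzyme of cytosol and nucleus, at 12.5 and 11.6. The ratio of Acss1 to Acss2 was 2.83 ± 0.144, and the replicates did not overlap.

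Desaturases place double bonds in acyl chains. Scd2 (ENSMUSG00000025203.5, chromosome 19, 44293676 to 44306864), a stearoyl-CoA desaturase that makes monounsaturated fatty acids, was the fifth highest of the 43 genes, at 149 and 144. Its neighbour Scd1, the form best known from liver and fat, was at 44.5 and 46.7, and Scd2 gave 76.3% ± 1.0 of their sum. The other members of this tandem cluster of 204 kilobases were close to absent, with Scd3 at 0.310 ± 0.112 and Scd4 at 0 and 0.0693. The desaturases of polyunsaturated chains form a cluster of 156 kilobases, also on chromosome 19. There Fads2, the delta-6 desaturase gene, was at 30.6 and 31.8 and Fads1, the delta-5 desaturase gene, at 21.6 and 21.2, whereas their neighbour Fads3 was at 0.241 ± 0.102. Genes within 1 cluster thus differed widely in level. Because paralogs share sequence, the division of reads among the Scd genes is uncertain.

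Elongases carry out the rate-limiting condensation that adds a pair of carbons to a fatty acid. Of the 7 genes 4 were detected (57.1%), close to the 50.5% of all protein-coding genes. Elovl6, which extends palmitate to stearate, was the highest at 40.5 and 38.5. Elovl5, which extends polyunsaturated chains, followed at 27.4 and 27.7. These made up 48.9% ± 0.423 and 34.1% ± 1.12 of the summed FPKM of the family. The enzymes of longer chains were lower: Elovl1, which makes saturated very long chains, was at 8.68 ± 0.567 and Elovl7 at 3.10 ± 0.181. Elovl2 and Elovl4, which make very long polyunsaturated chains, were at 1.02 ± 0.325 and 0.951 ± 0.145 and did not differ beyond their spread. Elovl3, known from skin and brown fat, was listed at 0. The span of Elovl1 shares 53 bases with that of Cdc20, a mitotic gene at 141 and 148, and it is not known whether the quantification took strand into account.

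Acyl-CoA synthetases activate free fatty acids for every later use, and all 5 measured genes were detected. Acsl3, the enzyme of endoplasmic reticulum and lipid droplets, was at 80.7 and 77.7 and gave 74.4% ± 0.691 of the family sum. Acsl1, the main form of liver, fat and muscle, was at 13.3 and 12.5. Acsl3 was higher than Acsl1 by a ratio of 6.14 ± 0.0881. Acsl4, which prefers arachidonate and is required for ferroptosis, was at 7.06 ± 0.311, Acsl5 at 4.96 ± 0.541 and Acsl6, known from brain, at 2.30 ± 0.0577. The replicates of these 5 genes did not overlap. The span of Acsl3 contains 9777 bases shared with Utp14b, which stood at 11.4 and 11.9.

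**Figure D2:**
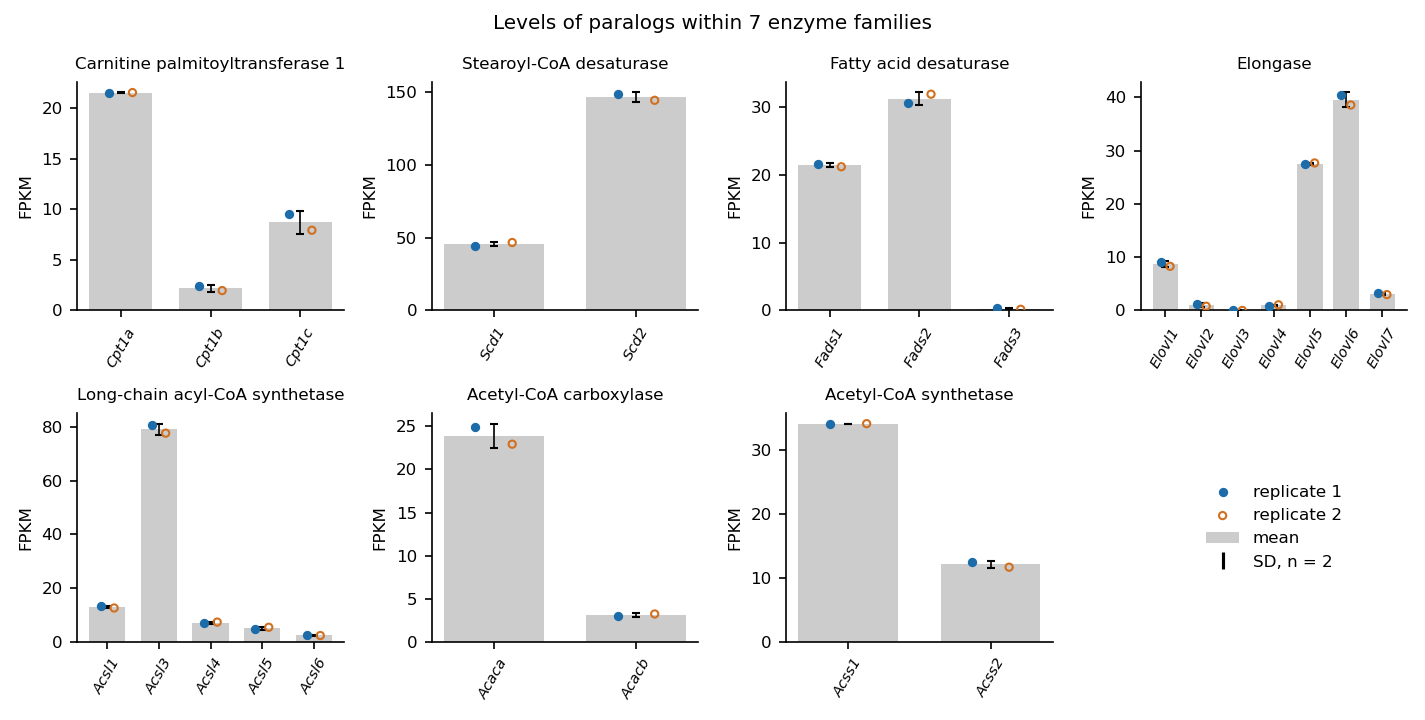
FPKM of each gene in 7 enzyme families, on linear axes that start at 0 and differ between panels; bars are means, error bars SD (n = 2) and points the replicates. In each family 1 or a pair of paralogs holds most of the signal, such as Acsl3 at 79.2 and Scd2 at 147.

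Uptake and binding showed the widest contrast. Fabp3 (ENSMUSG00000028773.8, chromosome 4, 130308738 to 130315463), the heart-type fatty acid binding protein gene that carries fatty acids through the cytosol, was the highest of all 43 genes, at 514 and 476. That mean of 495 ± 26.9 is above 97.9% of detected protein-coding genes. Fabp5, the epidermal form, was at 10.2 and 10.1, and Fabp3 was higher by a ratio of 48.7 ± 2.46. Cd36, the membrane receptor through which fat and muscle take up fatty acids, was at 0 and 0.0660. Because Fabp3 is known from heart and skeletal muscle, the muscle markers were examined: 1 of 9 was detected, Tnni3 at 5.70 and 5.59. Tnnt2, at 1.24 and 0.904, lay on either side of the limit, Mb was at 0.993 and 0.343, and Actc1 and Acta1 were listed at 0. The summed FPKM of these 9 markers was 8.32 and 7.02. The pseudogene Fabp3-ps1 was at 7.65 and 6.52, and its sequence may share reads with Fabp3. The span of Fabp3 shares 81 bases with Zcchc17, at 19.2 and 21.3.

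The carnitine shuttle carries acyl groups into mitochondria, and its 5 genes differed over a range from 2.21 to 46.8. Cpt1a (ENSMUSG00000024900.4, chromosome 19, 3322326 to 3385735) encodes the liver-type carnitine palmitoyltransferase of the outer membrane, the step that malonyl-CoA inhibits, and was at 21.5 and 21.6. Cpt1c, a brain form at the endoplasmic reticulum with little activity in oxidation, was at 9.53 and 7.94, and Cpt1b, the muscle form, at 2.46 and 1.96. Cpt1a gave 66.4% ± 3.07 of the sum of the 3. Slc25a20, the carnitine-acylcarnitine carrier of the inner membrane, was at 46.9 and 46.7. Cpt2 (ENSMUSG00000028607.15, chromosome 4, 107903982 to 107923589), the single enzyme that returns acyl groups to CoA inside mitochondria, was only at 3.54 and 3.02. Cpt1a was above Cpt2 by a ratio of 6.61 ± 0.757 and Slc25a20 by 14.4 ± 1.56, so the gene of the last step was below those of the entry step and the carrier, although still above Cpt1b.

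The enzymes of the beta-oxidation spiral were the highest group by median, at 55.9 ± 1.19 over 9 genes, of which 8 were detected. The first step is shared by dehydrogenases of different chain length, and their levels were far apart. Acadm (ENSMUSG00000062908.11, chromosome 3, 153922353 to 153944643), for medium chains, was at 159 and 153. Acads, for short chains, was at 38.7 and 37.2, and Acadvl, for very long chains at the inner membrane, at 18.8 and 17.3. Acadl (ENSMUSG00000026003.5, chromosome 1, 66830839 to 66863309), for long chains, was at 0.729 and 1.01. Acadm exceeded Acads by a ratio of 4.11 ± 0.00206 and Acadvl by 8.65 ± 0.285, with no overlap of replicates.

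The later steps of the spiral were more even. Echs1, the short-chain enoyl-CoA hydratase, was at 108 in each replicate. Hadh, the dehydrogenase of short and medium chains, was at 70.1 and 66.7, and Acaa2, the thiolase that ends the spiral, at 56.7 and 55.1. Hadha and Hadhb encode the subunits of the mitochondrial trifunctional protein, which acts on long chains, and share the start region printed above. Hadha was at 54.6 and 54.0 and Hadhb at 67.3 and 60.9, a ratio of Hadhb to Hadha of 1.18 ± 0.0745. Hadh and Hadhb did not differ beyond their spread. The span of Echs1 shares 687 bases with Paox, at 27.6 and 26.8.

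The subunits of electron transfer flavoprotein, which form a dimer of 1 alpha and 1 beta chain, were not equal in RNA. Etfb (ENSMUSG00000004610.3, chromosome 7, 43444072 to 43457800), the beta subunit gene, was at 202 and 187, and Etfa, the alpha subunit gene, at 23.8 and 24.9. The ratio of Etfb to Etfa was 8.48 in replicate 1 and 7.50 in replicate 2, against a ratio near 1 for the trifunctional protein. Etfdh, the dehydrogenase that passes the electrons to ubiquinone, was at 11.4 and 11.9, below Etfa by a ratio of 2.09 ± 0.00536. The span of Etfdh shares 23 bases with Ppid, which stood at 144 and 142.

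Synthesis was then set against oxidation. The synthesis list held Acly, Acss2, Acaca, Acacb and Fasn, and the oxidation list the 17 genes of the carnitine shuttle, the spiral and electron transfer. All 5 synthesis genes and 16 of 17 oxidation genes were detected. The median FPKM was 24.9 and 22.9 for synthesis and 38.7 and 37.2 for oxidation in replicates 1 and 2. The medians of log2(FPKM + 1) differed by -0.62 and -0.67 (synthesis minus oxidation), so the median of oxidation was higher in both replicates. These medians are the values of single genes, Acaca for synthesis and Acads for oxidation. The spread between replicates is that of these genes and does not measure the spread of genes within a list. The lists were interleaved, however: by mean level, oxidation genes ran from 0.872 to 194 and synthesis genes from 3.08 to 237, so that Acly stood above every oxidation gene and Acacb below all oxidation genes but Cpt1b and Acadl. With means of log2(FPKM + 1) in place of medians the difference was -0.08, and with medians but without Acacb it was -0.34. The direction depends on the summary: the summed FPKM was 313 over the 5 synthesis genes and 877 over the 17 oxidation genes. The mean FPKM per gene was thus higher for synthesis. The members of a list are different genes and not replicates, and no test of this difference was run, since the smallest exact two-sided p for 2 paired values is 0.5.

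**Figure D3:**
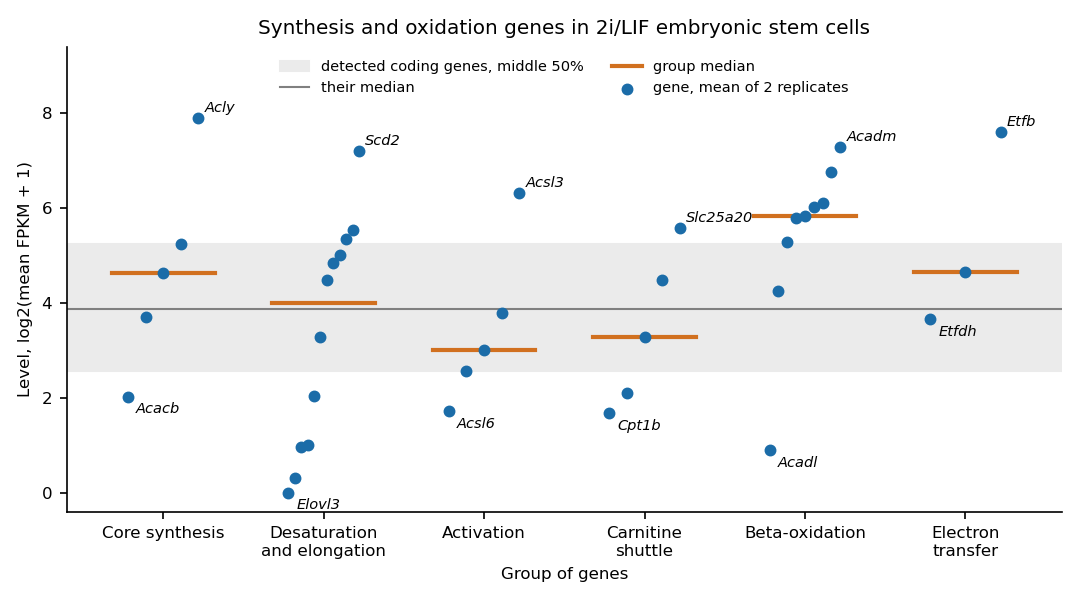
Mean level of each gene on the log2(mean FPKM + 1) axis for 6 groups, with orange bars at group medians and a grey band over the middle 50% of detected protein-coding genes. The beta-oxidation genes have the highest median, 55.9, with Acadl far below the rest, while Acly is the highest point of any group shown.

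Arranged by level, the 43 genes formed a nearly continuous series, and in 13 of the 42 pairs of neighbours the replicates overlapped, so that their order is not resolved. The 7 highest genes, from Fabp3 through Acly, Etfb, Acadm, Scd2 and Echs1 to Acsl3, were each separate from the next. Overlapping neighbours in the middle were Elovl6 with Acads, Acads with Fasn, Etfa with Acaca and Cpt1a with Fads1. The gene for fatty acid synthase thus stood level with the short-chain dehydrogenase gene, and the carboxylase of synthesis level with the alpha subunit of electron transfer flavoprotein. Lower down, Cpt2, Elovl7 and Acacb overlapped in turn. With 2 values against 2, the smallest exact two-sided permutation p is 0.333, so none of these orders can pass a test.

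The replicates gave nearly the same levels for the fatty acid genes. Over the 37 detected genes the median absolute log2 ratio between replicates, without a pseudocount, was 0.07, against 0.09 over all 11253 detected genes. Only Cpt1b and Cpt1c differed by more than 1.2-fold, 2 of 37 against 12.4% of all detected genes, and both were lower in replicate 2. The signed ratio was lower in replicate 2 for 25 of the 37, with a median log2 ratio of -0.04, and for 5767 of the 11253 detected genes, with a median of -0.0039. The ratios of Fabp3 and Etfb, both 0.926, lay within the central 95% of genes of like level.

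**Figure D4:**
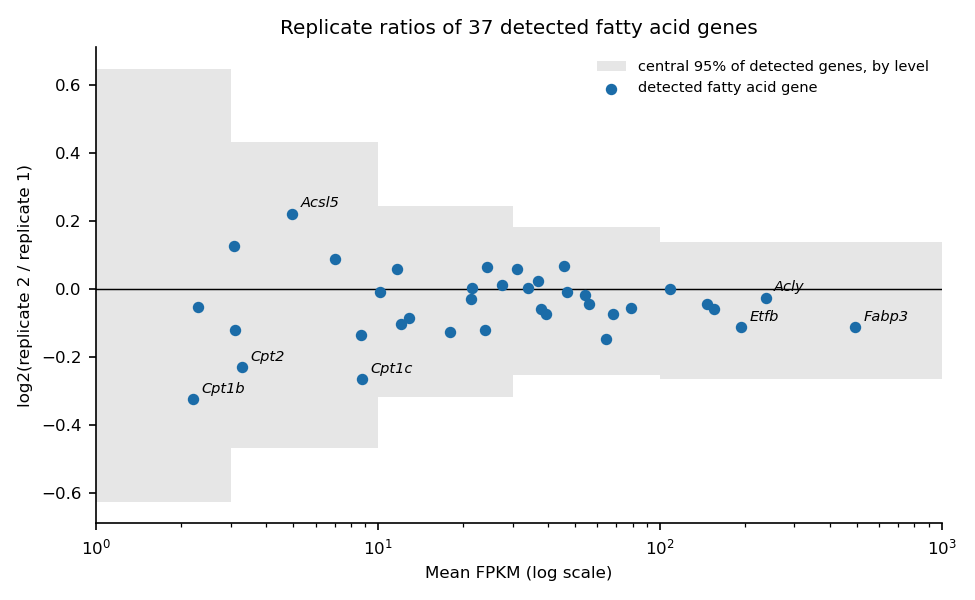
The log2 ratio of replicate 2 to replicate 1 against mean FPKM (log axis) for the 37 detected genes; grey boxes give the central 95% of all detected genes in 5 classes of level. All points lie inside the grey boxes, and the lowest and highest ratios, Cpt1b at -0.32 and Acsl5 at 0.22, belong to genes with an FPKM under 10.

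Among the genes listed, the regulators of synthesis had a higher median than those of oxidation. Of 11 regulators of synthesis 8 were detected, with a median of 12.8, and of 9 regulators of oxidation 4 were, with a median of 0.713. Of all protein-coding genes 50.5% were detected. The medians depend on which genes were listed, the lists were chosen with earlier results of these data known, and the synthesis median is the value of Srebf2. Insig1, which retains the sterol sensor complex in the endoplasmic reticulum, was at 168 and 156. Srebf1, the transcription factor gene that drives lipogenic genes, was at 35.3 and 30.9, and Nr1h2, the broadly expressed liver X receptor gene, at 28.6 ± 1.32. Srebf2, the factor of cholesterol synthesis, was at 12.8 ± 0.584, and the ratio of Srebf1 to Srebf2 was 2.60 ± 0.366. The carbohydrate-responsive factor Mlxipl (0.367 ± 0.0982) and the inducible liver X receptor Nr1h3 (0.497 ± 0.224) were not detected. Among the 9 listed regulators of oxidation, Esrra, an orphan receptor that activates mitochondrial genes, was the highest at 16.9 and 14.4. It was followed by Rxra at 4.04 ± 0.176 and Mlycd, which degrades malonyl-CoA, at 2.67 ± 0.0516. Esrrb, like Esrra an estrogen-related receptor gene, was placed among the pluripotent markers and not in this list, and stood at 98.4 and 90.8. The coactivator gene Ppargc1a and the adipogenic receptor gene Pparg were listed at 0 in both replicates, and Ppara, the main inducer of oxidation in liver, was at 0.167 and 0.0418. Srebf2, Ppara and Esrrb were named after their values were seen.

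The supply of citrate and NADPH and the partners of the elongases were present. All 5 genes of the supply list were detected: Idh1, a cytosolic source of NADPH, at 146 ± 6.29, the citrate carrier gene Slc25a1 at 88.4 ± 6.84, the pentose phosphate genes Pgd at 36.1 ± 0.00962 and G6pdx at 23.7 ± 0.339, and malic enzyme Me1 at 7.64 ± 0.334. Slc25a1 was at 0.373 ± 0.0244 of the level of Acly. Of the enzymes that complete each elongation cycle 5 of 6 were detected, against 50.5% of all protein-coding genes. The reductase genes Tecr and Hsd17b12 led at 107 ± 2.22 and 70.5 ± 2.35, and the dehydratases ranged from Hacd3 at 30.3 ± 1.76 through Hacd1 at 11.0 ± 0.174 and Hacd2 at 7.40 ± 0.816 to Hacd4 at 0.844 ± 0.0144. Among other desaturases Degs1, which makes ceramide, was at 56.5 ± 0.545, Fads6 at 3.47 ± 0.0490 and Degs2 at 1.25 ± 0.143.

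Mitochondria also have a synthesis pathway of their own, which makes the lipoate precursor. All 6 of its genes examined were detected, led by the acyl carrier protein gene Ndufab1, also a subunit of complex I, at 175 ± 1.34, then Mcat at 16.9 ± 0.581 and Mecr at 11.5 ± 0.20, with Oxsm (2.34 ± 0.490) and Acsf3 (2.29 ± 0.0485) lowest. Accessory enzymes of mitochondrial oxidation were detected for 9 of 10, with Hsd17b10 at 135 ± 3.16 and the enoyl-CoA isomerases Eci2 at 34.1 ± 4.20 and Eci1 at 27.6 ± 0.467. Acad10, an acyl-CoA dehydrogenase of this list, was at 1.17 ± 0.0756. In peroxisomes, where very long chains are shortened, 10 of 14 genes were detected (71.4%), against 50.5% of all protein-coding genes. These were led by the thiolases Scp2 at 61.4 ± 6.09 and Acaa1a at 37.6 ± 3.62 and by Hsd17b4 at 29.7 ± 0.103, while Acox2 and Abcd2 were at 0.0154 ± 0.00539 and 0.00487 ± 0.00688.

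Of the other uptake and transport genes 6 of 13 were detected (46.2%), close to the 50.5% of all protein-coding genes. Dbi, the acyl-CoA binding protein gene, was at 152 ± 6.01, Acbd3, of the same domain family, at 13.0 ± 0.285 and the transporter Slc27a4 at 8.43 ± 0.275. Slc27a6 and the liver form Fabp1 were listed at 0 in both replicates. Of 22 genes of storage and lipolysis 16 were detected, with the lipid droplet coats Plin3 at 82.6 ± 2.90 and Plin2 at 57.8 ± 6.45 and the acyltransferase Agpat2 at 30.4 ± 3.18 highest. Plin1 and Plin4, the coats of fat cells, were at 0.0235 ± 0.0111 and 0.128 ± 0.00353. Over all 101 of these other genes examined, 72 were detected (71.3%), against 50.5% of all protein-coding genes.

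**Figure D5:**
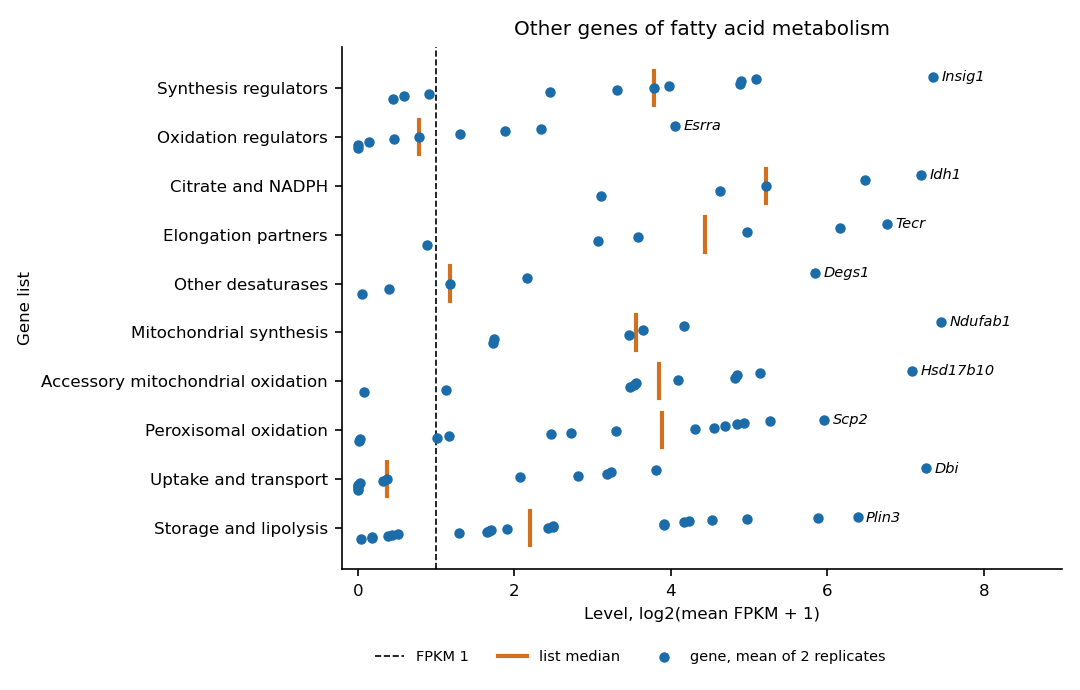
Mean level of each gene in 10 further lists on the log2(mean FPKM + 1) axis, with orange bars at list medians and a dashed line at an FPKM of 1. The oxidation regulators and the uptake and transport genes have medians left of the line, at 0.713 and 0.289, and the citrate and NADPH genes have the highest median, at 36.1.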

How the data were processed

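Total RNA of 2 replicates of E14TG2a cells was extracted with TRIzol, depleted with Ribo-Zero Gold and sequenced from stranded libraries, per the labels' protocols. The authors deposited 1 table of FPKM per gene and replicate. CASAVA, TopHat2 and Cufflinks with the builds mm10 and GRCm38 were used, per the submitters' processing notes. The sources used here give no versions, annotation, use of strand or further scaling. The number of reads is not known, so no counting interval is given, and FPKM summed to 946498 and 928174. Columns were assigned by the description of each sample.

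Identifiers were matched to symbols for 28256 of 28592 genes. Gene types, spans and promoters are those of RefSeq on GRCm38.p6. Levels were summarised as medians and as log2(FPKM + 1) with Python 3.11.15, numpy 2.4.6 and pandas 2.3.3, and the summaries were tested on simulated data. Comparisons are descriptions, since an exact test of 2 values cannot give a p below 0.5 and of 2 against 2 values below 0.333. The members and lists were chosen with earlier results of these data known. All 43 members are named, and of each other list the 3 highest and 2 lowest genes by mean FPKM, or all where a list has 6 or fewer, with ties at 0 taken in list order. The rule also covered the 3 highest genes of each marker list and all markers of pluripotent cells. Outside the muscle list, these lists are given as counts and, for some, a range or a sum. Esrrb and the fibroblast and muscle markers named were chosen after their values were seen. Hsd17b8 was not analysed here. Another gene within this rule is not reported here. Alternatives were other detection limits, pseudocounts of 0.1 and 0.01, TPM, filters, list definitions, means and leaving out each replicate.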

Additional observations from a re-analysis of the deposited data

How the results depend on the processing

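The count of detected genes was between 31 and 41 over its 7 alternatives, against 37, but the direction of most of these changes was fixed in advance. A lower limit or a single replicate can only keep or raise the count, and a higher limit can only keep or lower it. Leaving out the 6 genes that overlap another detected coding gene, all of them detected, gave 31 by construction. Leaving out a replicate in turn gave 38 and 39 detected genes, medians of 22.9 to 24.9 for synthesis and 37.2 to 38.7 for oxidation, and a difference (synthesis minus oxidation, log2) of -0.67 to -0.62. Rescaling to TPM gave medians of 25.5 and 40.5 for synthesis and oxidation. The difference of -0.64 kept its sign under all 13 alternatives but moved with the choice of genes and of summary. The filter at a mean FPKM of 0.1 removed no gene, and TPM rescales all genes of a replicate alike, so neither could test the sign. The pseudocounts could not test it either, since each median is the value of a single gene, Acaca or Acads. The filter at a mean FPKM of 1 removed only Acadl, and Cpt1b and Cpt1c also lie below the oxidation median. Leaving these genes out could therefore only make the difference more negative. Means of log2(FPKM + 1) over genes gave -0.082, whereas the plain mean FPKM per gene was higher for synthesis. The difference was -0.80 with desaturases and elongases in the synthesis list (synthesis median 21.4) and -0.34 without Acacb (30.4). It was -0.94 without Cpt1b and Cpt1c (oxidation median 46.8), and -0.79 without Etfa, Etfb and Etfdh (42.4), with the same values among genes averaging an FPKM of 1 or more. Without the 6 genes whose spans overlap another detected coding gene, an alternative chosen after seeing the data, it was -0.81. For the shares of the leading paralog in 8 families the only alternatives were the single replicates, whose difference is what the SD states. No paired analysis was possible because the series has 1 group. Low FPKM values are the least precise, and read counts are not known.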
